A study of Mus musculus with 4 samples.

Results

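The expression of 10 genes of the NF-kB system was examined in mouse hair follicle stem cells (HFSCs) passaged for a short or a long term. The genes were chosen by name from the 24346 gene symbols measured, and comprise the subunit genes Nfkb1, Nfkb2, Rela and Relb, the inhibitor genes Nfkbia, Nfkbie, Nfkbiz and Bcl3, the feedback gene Tnfaip3, and Ikbkb, which encodes the kinase that starts the response. HFSCs were sorted as CD49f+ CD34+ cells from dorsal skin of 4-week-old C3H/HeN mice and cultured in the serum-free medium M-CnT without feeder cells. RNA was sequenced after 10 passages (10p-HFSCs, 2 libraries) and after 48 passages (48p-HFSCs, 2 libraries), which asks how long-term culture changed the cells. The sources do not say whether the 2 libraries of a group came from separate cultures or animals, so that p-values measure the spread between these libraries, which may be technical. Passage number cannot be told apart from anything else that differed between the cultures.

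The libraries and the label were checked first. Levels are FPKM, fragments scaled by transcript length and for library size, and the absolute depth of the libraries is not known. As deposited, the libraries were already level at the typical gene. Their median-of-ratios factors, each the median ratio of a library to the geometric mean of all libraries, lay between 1.0003 and 1.0111. Their summed FPKM were not level. Replicate 2 of 48p-HFSCs stood apart. Its depth was estimated at 46.7% of that of replicate 1 of 10p-HFSCs. The estimate came from the most common ratio of FPKM below 0.3, which reflects how the values were scaled and is not a count of reads. Its summed FPKM was 1414953 against 581516 to 719012 in the other libraries. In 1871 genes it differed by 2-fold or more from replicate 1 of 48p-HFSCs, against 151 such genes between the 10p-HFSC libraries. Of the genes that mark HFSCs, Cd34, Lhx2, Tcf7l1 and Nfatc1 were at or near 0 in all 4 libraries (Cd34 reached 0.234 FPKM at most). The sort on CD34 was for surface protein and came before the first culture. The other markers of the list were expressed. Sox9 was measured at 45.6 and 44.2 FPKM in 10p-HFSCs and at 20.2 and 8.31 FPKM in 48p-HFSCs, and Itga6, the CD49f of the sort, at 31.4 and 20.8 FPKM in 10p-HFSCs and at 79.0 FPKM or more in 48p-HFSCs. Krt15 was measured at 136, 82.6, 425 and 18.8 FPKM in replicates 1 and 2 of 10p- and then of 48p-HFSCs. The paper reports CD34 protein on most cells of both groups. By qRT-PCR it reports that Cd34 was maintained and that Lhx2 and Sox9 increased in 48p-HFSCs. The FPKM of Cd34, Lhx2 and Sox9 differ from that account, and the cause was not tested. The keratins of basal keratinocytes, Krt5 and Krt14, were at 1217 FPKM or more in every library.

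NF-kB is a family of dimeric transcription factors built from Rel proteins, which are held in the cytoplasm by inhibitors of the IkB family. Ligands such as TNF and interleukin 1 activate the IkB kinase complex, the inhibitor is degraded, and dimers that contain Rela enter the nucleus. A slower arm runs through processing of the Nfkb2 precursor and acts through Relb. Many of the genes that NF-kB switches on encode its own inhibitors and subunits, so that the transcripts of Nfkbia, Nfkbie, Nfkbiz, Tnfaip3, Nfkb2 and Relb are commonly read as signs of its activity. In skin, the family is known for its part in inflammation, in keratinocyte growth control and in the formation of hair placodes.

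The promoters of these genes are shown because the binding motif of the factor lies in front of several of them. RefSeq promoter windows (GRCm38.p6) were found for Nfkb2, Rela, Nfkbia, Nfkbie, Tnfaip3 and Bcl3, and not for Nfkb1, Relb, Nfkbiz and Ikbkb. The 250 bases before each transcript start were searched on both strands for the kappaB motif, taken as 3 G bases, a purine, 2 bases of any kind, 2 pyrimidines and 2 C bases. A match was found for 4 of the 6 genes, Nfkb2, Nfkbia, Nfkbie and Tnfaip3, and for 10.6% of the 8457 genes tested for expression that had a window (7.25% of all 32851 windows). The 130 bases before the transcript start are printed 5′ to 3′ on the strand of the gene, with the matches in capitals.
Nfkb2, chr19:46304607-46304736, strand +: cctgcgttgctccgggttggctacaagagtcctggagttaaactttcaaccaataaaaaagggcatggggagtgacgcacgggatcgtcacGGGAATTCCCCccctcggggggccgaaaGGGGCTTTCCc
Nfkbia, chr12:55492648-55492777, strand -: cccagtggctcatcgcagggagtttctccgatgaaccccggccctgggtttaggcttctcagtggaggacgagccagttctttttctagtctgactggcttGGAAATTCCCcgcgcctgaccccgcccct
Nfkbie, chr17:45555570-45555699, strand +: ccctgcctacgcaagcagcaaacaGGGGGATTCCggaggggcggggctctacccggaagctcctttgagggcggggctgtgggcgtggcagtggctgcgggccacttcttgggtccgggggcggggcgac
Tnfaip3, chr10:19015411-19015540, strand -: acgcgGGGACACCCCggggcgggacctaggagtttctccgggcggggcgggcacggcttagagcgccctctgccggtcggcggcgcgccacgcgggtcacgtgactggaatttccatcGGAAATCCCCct
The Nfkb2 stretch held 3 matches, of which 2 overlap by all but 1 base, and the Tnfaip3 stretch held 2 matches, the nearer beginning 12 bases before the transcript start. RefSeq gives 3 windows for Nfkb2, and each of the other 2 held 1 match (236 and 225 bases before the start), while the second window of Tnfaip3 held 0. The match of Nfkbia began 29 bases and that of Nfkbie 106 bases before the start. The stretches of Nfkb2 and Tnfaip3 lie inside the annotated span of the gene, where another transcript begins further upstream, and those of Nfkbia and Nfkbie lie just outside it. A match describes the letters of the window and is not a measurement of binding.

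Among the 10 genes, Nfkbiz, Relb and Nfkbie were called higher in 48p-HFSCs and none of the 9 genes tested was called lower, while Nfkbia was lower in both 48p-HFSC libraries without passing the test and Bcl3 could not be tested. Differences are those of log2(FPKM + 1), 48p-HFSCs against 10p-HFSCs, fitted with limma across 11018 genes with an FPKM of 1 or more in 2 or more libraries, and a gene was called at an adjusted p-value below 0.05 and a log2 difference of 1 or more in size. On this scale the change of a low gene is understated. Of the 9 genes tested, 3 were called higher and 0 lower by limma, against 10.8% called higher and 9.15% called lower over all genes tested. Of the 3, Nfkbie passed the minimum only through 48p-HFSCs and could only be higher, so the count is no evidence of a direction. At an unadjusted p-value below 0.05, 4 of the 9 were higher and 1 was lower, against 18.5% and 18.9% of all genes tested. The libraries of 48p-HFSCs were both above those of 10p-HFSCs for 5 genes and both below them for 2 genes, and the same held for 31.7% and 34.3% of all genes tested. The median log2 difference was 0.15 over the 9 genes and -0.03 over all genes tested. In bulk RNA, fewer cells that express a gene and less RNA of it per cell cannot be told apart. The smallest two-sided p-value that exact permutation of 2 and 2 libraries allows for 1 gene is 0.333.

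**Figure D1:**
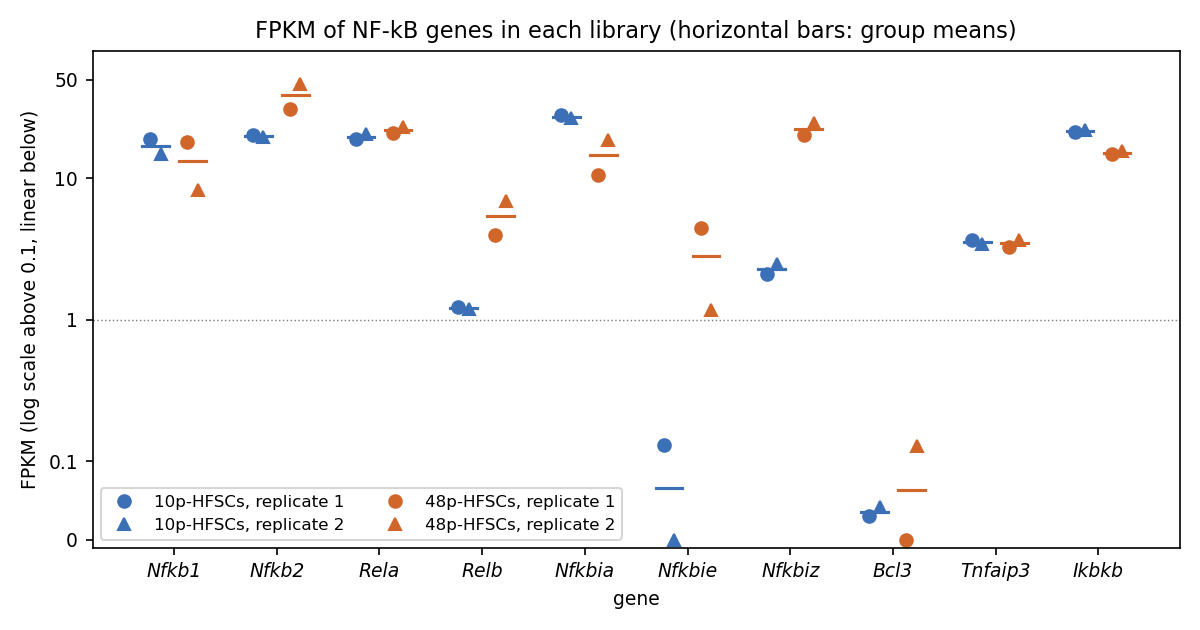
FPKM of each of the 10 genes in each of the 4 libraries, with points for libraries and bars for group means. Nfkbiz and Relb stand higher in both 48p-HFSC libraries, Nfkbia and Ikbkb stand lower, and Rela and Tnfaip3 lie close together in all libraries.

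Nfkbiz (chr16:55811375-55838899, minus strand, mm10) encodes a nuclear IkB protein that acts as a coactivator at a subset of NF-kB targets, and had the largest log2 difference of the 9 genes tested with a pseudocount of 1 (with 0.1, that of Nfkbie was 3.98 and that of Nfkbiz 3.23). Its level was 2.1 and 2.48 FPKM in 10p-HFSCs and 20.2 and 24.5 FPKM in 48p-HFSCs. The mean went from 2.29 ± 0.268 to 22.3 ± 3.04 FPKM (SD, n = 2 each), a ratio of 9.75, and the groups were far apart relative to the spread in either. The log2 difference was 2.82 ± 0.27 (SE), with a 95% confidence interval from 2.15 to 3.50 and an adjusted p-value of 0.0021. The call was lost without replicate 1 of 10p-HFSCs (adjusted p-value 0.088) and without replicate 2 of 10p-HFSCs (0.0783), while the difference was then 2.74 and 2.91. Without replicate 1 or replicate 2 of 48p-HFSCs it was kept.

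Relb (chr7:19606217-19629438, minus strand) encodes the subunit that pairs with the processed Nfkb2 product. It was measured at 1.23 and 1.20 FPKM in 10p-HFSCs and at 4.0 and 6.89 FPKM in 48p-HFSCs. Both 48p-HFSC values were above both 10p-HFSC values, with a ratio of group means of 4.48. The log2 difference was 1.5 ± 0.31 (SE), with a confidence interval from 0.73 to 2.28 and an adjusted p-value of 0.0245. The call was lost without replicate 1 or replicate 2 of 10p-HFSCs (adjusted p-values 0.276 and 0.254), and with no filter on low values (0.196).

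Nfkb2 (chr19:46304320-46312385, plus strand), the precursor gene of the slower arm, was measured at 20.3 and 19.6 FPKM in 10p-HFSCs and at 31.1 and 46.3 FPKM in 48p-HFSCs. The groups did not overlap, and the ratio of their means was 1.94. The log2 difference of 0.89 ± 0.29 (SE; confidence interval 0.19 to 1.60) had an adjusted p-value of 0.0789 and was not called. Without replicate 1 of 48p-HFSCs it was 1.17 with an adjusted p-value of 0.0234, which passes both limits, without replicate 2 of 48p-HFSCs it was 0.61 with 0.115, and after all libraries had been brought to 1 summed FPKM it was 0.33 with 0.674. Nfkb2 overlaps Psd on the opposite strand by 299 bases, and Psd was measured at 1.08 and 1.90 FPKM in 10p-HFSCs and at 3.46 and 3.09 FPKM in 48p-HFSCs. The paper names a stranded library kit, but whether the strand was used in the quantification is not given in the sources used here.

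The subunit genes of the main dimer were not called. Rela (chr19:5637483-5648130, plus strand), which carries the activation domain of that dimer, was measured at 19.0 and 20.5 FPKM in 10p-HFSCs and at 21.1 and 23.0 FPKM in 48p-HFSCs. Its log2 difference was 0.15 ± 0.24 (SE), with a confidence interval from -0.44 to 0.75 and an adjusted p-value of 0.679, and it was -0.41 after all libraries had been brought to 1 summed FPKM. Rela had the smallest difference between replicates of 48p-HFSCs among the subunit genes, 1.09-fold. Nfkb1 (chr3:135584655-135691547, minus strand), the precursor gene of its partner, was measured at 18.9 and 15.0 FPKM in 10p-HFSCs and at 18.2 and 8.34 FPKM in 48p-HFSCs. The groups overlapped, and the 48p-HFSC libraries were 2.18-fold apart. The log2 difference of Nfkb1 was -0.42 ± 0.40 (SE; confidence interval -1.40 to 0.57, adjusted p-value 0.484), and 0.10 without replicate 2 of 48p-HFSCs.

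**Figure D2:**
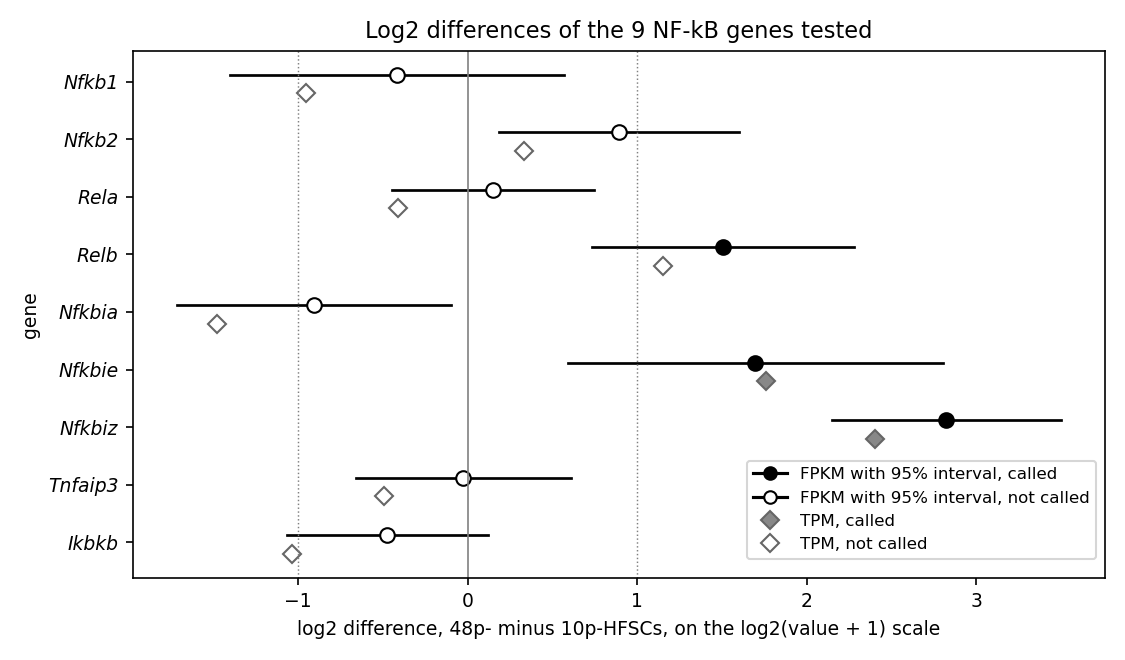
Log2 difference in log2(FPKM + 1) between 48p- and 10p-HFSCs for the 9 genes tested, with 95% confidence intervals from limma. The intervals of Nfkbiz, Relb, Nfkbie and Nfkb2 lie above 0, that of Nfkbia lies below 0 (-1.71 to -0.10), and those of Rela, Tnfaip3, Nfkb1 and Ikbkb include 0.

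Nfkbia (chr12:55489410-55492647, minus strand) encodes the inhibitor that retains Rela dimers in the cytoplasm and is itself an NF-kB target. Its level was 27.9 and 26.7 FPKM in 10p-HFSCs and 10.6 and 18.8 FPKM in 48p-HFSCs. Both 48p-HFSC libraries were below both 10p-HFSC libraries, and the mean went from 27.3 ± 0.864 to 14.7 ± 5.80 FPKM (SD, n = 2 each). The log2 difference was -0.90 ± 0.33 (SE), with a confidence interval from -1.71 to -0.10, and the adjusted p-value of 0.105 did not pass. Without replicate 2 of 48p-HFSCs the difference was -1.29 with an adjusted p-value of 0.0345, without replicate 1 of 48p-HFSCs it was -0.52 with 0.105, and with a correction for transcript length and GC content, added after the data had been seen, it was -1.29 with an adjusted p-value of 0.021. Nfkbia and Nfkbiz, both of the IkB family, lay on opposite sides of 0 in the same libraries.

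Nfkbie (chr17:45555703-45563169, plus strand) encodes another cytoplasmic inhibitor. It was measured at 0.131 FPKM and listed at 0 in 10p-HFSCs, and at 4.46 and 1.17 FPKM in 48p-HFSCs, so that the groups did not overlap while the 48p-HFSC libraries were 3.81-fold apart. It was called higher, with a log2 difference of 1.69 ± 0.45 (SE), a confidence interval from 0.59 to 2.80 and an adjusted p-value of 0.0481. It passed the minimum FPKM only through 48p-HFSCs, as did 616 of the 11018 genes tested, and such a gene had to be higher there. The difference was 1.03 without replicate 1 and 2.36 without replicate 2 of 48p-HFSCs, and 3.98 with a pseudocount of 0.1. The call was lost without either 10p-HFSC library (adjusted p-values 0.319 without replicate 1 and 0.313 without replicate 2), with no filter on low values (0.312), with a constant variance prior (0.0616) and with the length and GC correction (0.0518).

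Bcl3 (chr7:19808462-19822770, minus strand), a nuclear IkB protein that binds dimers lacking an activation domain, was measured at 0.030 and 0.042 FPKM in 10p-HFSCs and at 0 and 0.128 FPKM in 48p-HFSCs. These values were below the minimum, and Bcl3 was not tested. Relative to replicate 1 of 10p-HFSCs, the ratios of Bcl3 were 1.0 and 2.0 times the most common ratio of low values in replicate 2 of 10p-HFSCs and replicate 2 of 48p-HFSCs, so that its non-zero values stand in the ratio of about 1 to 2 reads and a change was not detectable at this depth.

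Tnfaip3 (chr10:19000910-19015657, minus strand), a ubiquitin-editing enzyme that ends NF-kB signalling and is one of the classical targets of the factor, was measured at 3.70 and 3.44 FPKM in 10p-HFSCs and at 3.28 and 3.70 FPKM in 48p-HFSCs. The groups overlapped. The log2 difference was -0.03 ± 0.26 (SE), with a confidence interval from -0.66 to 0.61 and an adjusted p-value of 0.952, and it was 0.05 after quantile normalization and 0.29 after the length and GC correction. After all libraries had been brought to 1 summed FPKM, the difference was -0.49 ± 0.68 (SE). The interval of the main fit does not reach the limit of 1 in either direction. It is on the log2(FPKM + 1) scale, which understates the change of a low gene.

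Ikbkb (chr8:22659212-22706589, minus strand), which encodes the catalytic subunit of the kinase complex, was measured at 21.2 and 21.9 FPKM in 10p-HFSCs and at 14.9 and 15.5 FPKM in 48p-HFSCs. The 48p-HFSC values were below the 10p-HFSC values with little spread in either group. The log2 difference of -0.48 ± 0.24 (SE; confidence interval -1.07 to 0.12) had an adjusted p-value of 0.206. The median log2 difference of the 564 genes tested on chromosome 8 was -0.60, and that of Ikbkb was 0.13 above it. Such a median was computed for chromosome 8 only, so members on other chromosomes were not set against theirs. The part of the chromosome in the level of Ikbkb was not tested.

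The order of the levels was then compared, on the FPKM scale, which is per length. In 10p-HFSCs Nfkbia was highest, followed by Ikbkb, Nfkb2, Rela, Nfkb1, Tnfaip3, Nfkbiz, Relb, Nfkbie and Bcl3. Of the neighbours in this order, Nfkb2 and Rela overlapped between libraries, as did Nfkbie and Bcl3. In 48p-HFSCs the order was Nfkb2, Nfkbiz, Rela, Ikbkb, Nfkbia, Nfkb1, Relb, Tnfaip3, Nfkbie and Bcl3, and the overlapping neighbours were Nfkbiz and Rela, Ikbkb and Nfkbia, Nfkbia and Nfkb1, and Tnfaip3 and Nfkbie. Nfkbiz thus moved from place 7 to place 2, and Nfkbia from place 1 to place 5.

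Since the libraries differed in summed FPKM, levels were also set against Rela of the same library, a ratio that no scaling of a library can change (added after the data had been seen). Nfkbiz was at 0.111 and 0.121 times the level of Rela in 10p-HFSCs and at 0.955 and 1.06 times in 48p-HFSCs. Nfkbia was at 1.47 and 1.3 times Rela in 10p-HFSCs and at 0.501 and 0.816 times in 48p-HFSCs, so that it was above Rela in both libraries of one group and below it in both of the other. The ratio was 0.0646 and 0.0584 against 0.189 and 0.299 for Relb, and 1.07 and 0.957 against 1.47 and 2.01 for Nfkb2, without overlap in either case. It was 1.12 and 1.07 against 0.707 and 0.675 for Ikbkb, while that of Nfkb1 overlapped between the groups. The ratio of Tnfaip3, whose FPKM overlapped, did not overlap (0.195 and 0.167 against 0.155 and 0.161). Nor did that of Nfkbie (0.0069 and 0 against 0.211 and 0.0509). The share of all genes without overlap on this ratio was not computed. A ratio shows unequal change and does not show that Rela itself was constant.

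When all libraries were brought to 1 summed FPKM (TPM), the median of all genes tested shifted to -0.56, and 5.65% of genes were called higher. Nfkbiz (log2 difference 2.40, adjusted p-value 0.041) and Nfkbie (1.76, 0.0498) kept their calls, and Relb (1.15, 0.233) did not. Relative to that median, Nfkbiz was at 2.96, Nfkbie at 2.32, Relb at 1.71, Nfkb2 at 0.89, Rela at 0.15 and Nfkbia at -0.92.

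**Figure D3:**
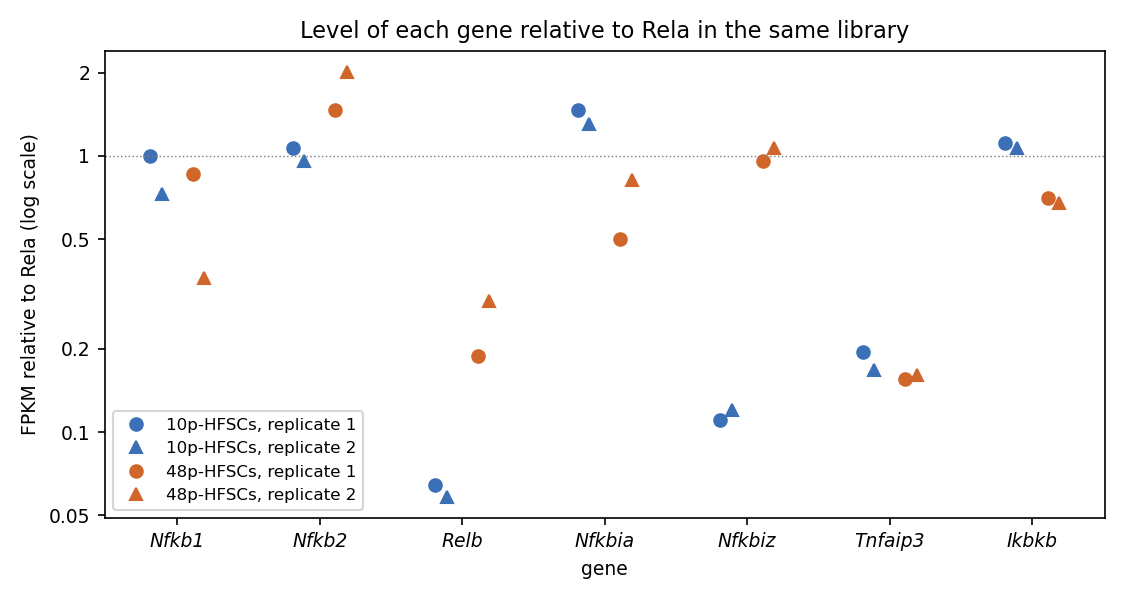
Level of each gene as a multiple of the Rela FPKM of the same library, on a log axis, for the 4 libraries. Nfkbiz is near 0.1 in 10p-HFSCs and near 1 in 48p-HFSCs, and Nfkbia is above 1 in 10p-HFSCs and below 1 in 48p-HFSCs.

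The genes whose profile over the 4 libraries was nearest to that of Nfkbiz were Tspan5, Gm20767 and Fhit, with root mean square differences of 0.0385, 0.0546 and 0.0681 on the log2 scale after each profile was centred. Tspan5, a tetraspanin, was measured at 12.4 and 13.6 FPKM in 10p-HFSCs and at 84.1 and 103 FPKM in 48p-HFSCs. Gm20767 was measured at 0.0798 and 0.33 FPKM in 10p-HFSCs and at 6.64 and 7.95 FPKM in 48p-HFSCs. For Fhit the values were 0.0745 and 0.31 against 6.02 and 8.14 FPKM. Both passed the minimum only through 48p-HFSCs, and the pseudocount of 1 used for the profiles understates the change of such low genes. Profiles over 4 libraries in 2 groups have few points, and the likeness is a description.

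The other genes of the pathway were taken from lists of ligands, receptors, adaptors, kinases with their binding partners, other subunits and inhibitors, and targets. Of these 86 genes, 57 were tested, and 11 of them (19.3%) were called higher and 5 (8.77%) lower, against 10.8% and 9.15% of all genes tested. Their median log2 difference was 0.22. Of the 11 called higher, 5 were below the minimum FPKM in 10p-HFSCs and had to be higher in 48p-HFSCs to be tested, and 1 of the 5 called lower was below it in 48p-HFSCs. Without replicate 1 or without replicate 2 of 10p-HFSCs, 0 of the 57 were called higher and 1 lower, and without replicate 1 of 48p-HFSCs 8 were called lower.

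Of 10 ligand genes, only Il1a, which encodes interleukin 1 alpha, passed the minimum, and it rose. It was measured at 1.49 and 1.77 FPKM in 10p-HFSCs and at 20.5 and 30.2 FPKM in 48p-HFSCs, a log2 difference of 3.30 with an adjusted p-value of 0.0019. The other ligands, Tnf among them at 0.203 FPKM or less, were not tested, and 4 were listed at 0 in all libraries. Of 14 receptor genes, 8 were tested. Il1r1, the receptor of interleukin 1, rose from 0.108 and 0.075 to 5.24 and 1.43 FPKM (log2 difference 1.84, adjusted p-value 0.0402). Il1rap, its coreceptor, fell from 9.44 and 6.90 to 0.095 and 0.195 FPKM (-2.99, 0.0017). Il1r1 passed the minimum only through 48p-HFSCs and Il1rap only through 10p-HFSCs, so that the filter fixed the direction of each. Tlr3, a sensor of double-stranded RNA, fell from 18.1 and 15.3 to 3.32 and 1.04 FPKM (-2.57, 0.0111). Like Ikbkb it lies on chromosome 8, where the median log2 difference of the genes tested was -0.60.

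Of 17 adaptor genes, 13 were tested, and Rnf31, the catalytic subunit of the linear ubiquitin ligase, was called higher (3.14 and 2.28 against 11.1 and 15.0 FPKM, log2 difference 1.92, adjusted p-value 0.0100). No adaptor was called lower by limma, and at an unadjusted p-value below 0.05 there were 3 higher and 4 lower. Of 10 genes of kinases and their binding partners, 9 were tested. Ikbke, which encodes an IkB kinase relative that acts mainly on interferon regulatory factors, rose from 0.652 and 1.37 to 16.3 and 14.1 FPKM (3.03, 0.0023). Tab2, which links the kinase Map3k7 to ubiquitin chains, fell from 50.5 and 42.7 to 15.8 and 9.94 FPKM (-1.81, 0.0127). Chuk and Ikbkg, which encode the partners of the Ikbkb product, had log2 differences of -0.45 and -0.33 and were not called. Of 14 other subunit and inhibitor genes, 13 were tested, and limma called 0 higher (1 at an unadjusted p-value below 0.05). Itch, a ubiquitin ligase that works with the Tnfaip3 product, fell from 24.5 and 15.3 to 8.62 and 6.34 FPKM (-1.28, 0.0455).

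Of 21 target genes, 13 were tested, 7 were called higher and 1 lower, against 10.8% and 9.15% of all genes tested, with a median log2 difference of 1.32. Of the 7 called higher, 4 (Ccl5, Csf2, Cxcl5 and Cxcl10) passed the minimum only through 48p-HFSCs and could only be higher. The median of 1.32 was the value of Cxcl10, so neither the count nor the median is evidence of a direction. Ccl5, a T cell chemokine, was at 0 in each library of 10p-HFSCs, and was measured at 25.6 and 60.5 FPKM in 48p-HFSCs (log2 difference 5.34, adjusted p-value 0.0013). Ptgs2, the inducible enzyme of prostaglandin synthesis, rose from 7.36 and 5.27 to 49.8 and 66.6 FPKM (3.02, 0.0021). Gadd45b, a stress response gene, rose from 26.7 and 29.1 to 85.3 and 407 FPKM (2.70, 0.0454), and the 48p-HFSC libraries were 4.76-fold apart. Csf2, Irf1, Cxcl5 and Cxcl10 were also called higher, and Csf1, a macrophage growth factor, was called lower (34.6 and 39.2 against 8.72 and 4.73 FPKM, -2.34, 0.0073). Ccl5, Cxcl10 and Irf1 are also known as targets of interferon. Sod2, at a log2 difference of -0.43, and Bcl2l1, at 0.24, were not called.

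**Figure D4:**
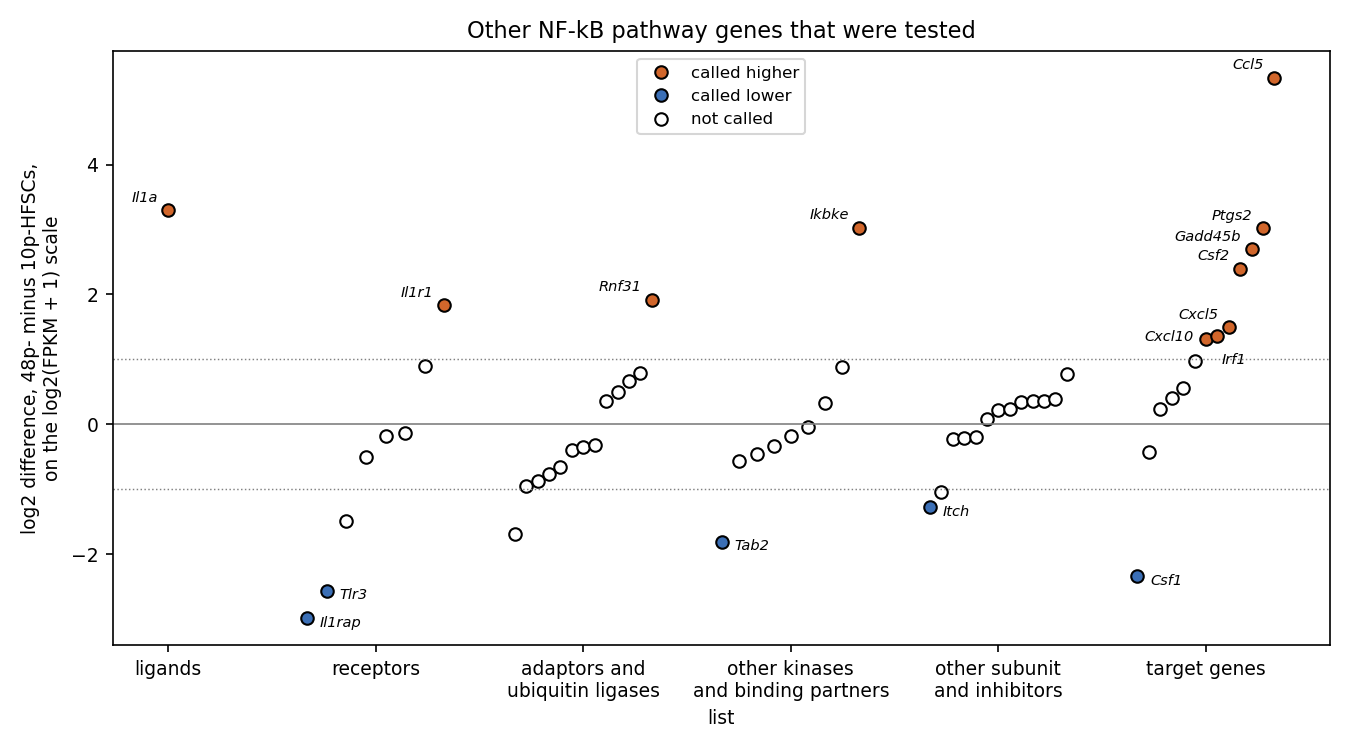
Log2 difference in log2(FPKM + 1), 48p- against 10p-HFSCs, of each tested gene of the pathway lists, grouped by role, with genes called higher or lower marked. Targets hold 7 of the 11 genes called higher, and 4 of these 7 were tested only through 48p-HFSCs. Adaptors, kinases with their binding partners, and other inhibitors lie mostly between -1 and 1.

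Markers of other cell types were set beside these values. The summed FPKM of 7 leukocyte markers was 7.94 and 7.51 for 10p-HFSCs against 118 and 183 for 48p-HFSCs. Most of the latter came from Cd74 (61.2 and 102 FPKM) and Cd68 (53.3 and 78.7 FPKM). Cd74, Lyz2 and Cd68 were called higher, but Cd74 and Lyz2 passed the minimum only through 48p-HFSCs and could only be higher. Cd3e and Tyrobp were listed at 0 in all libraries and Ptprc was at 0.0711 FPKM or less. The sum of 10 fibroblast markers was 353 and 388 for 10p-HFSCs against 2.53 and 3.32 for 48p-HFSCs, where Vim and Col1a2 were called lower, and Dcn, Lum and Twist1 were listed at 0 in all libraries. The sum of 8 basal keratinocyte markers was 4207 and 3521 against 13219 and 8696. Most of each sum came from Krt5 and Krt14, which limma did not call (adjusted p-values 0.181 and 0.282), and only Itgb4 was called higher. Both 48p-HFSC libraries were above both 10p-HFSC libraries for 5 of the 8 and below them for 1, Epcam. The same held for 31.7% and 34.3% of all genes tested. Trp63 and Dsp overlapped between the groups. Of the HFSC markers, Itga6 was called higher and Sox9 lower. Of the melanocyte and endothelial markers limma called 0, with 1 of each list at an unadjusted p-value below 0.05. That of the melanocyte list, Tyr, passed the minimum only through 48p-HFSCs and could only be higher. The part of the cell makeup in the levels of Nfkbiz, Relb, Nfkbie and the targets was not tested.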

How the data were processed

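RNA of 10p- and 48p-HFSCs was sequenced in 4 libraries, 2 in each group, grouped and numbered as labelled by the submitters. The deposited values are FPKM, 1 per gene symbol and library, that the authors computed after mapping to the mouse genome mm10. The submitters' processing notes name TopHat2 2.1.1, Bowtie2 2.2.8, SAMtools 0.1.18 and Cuffdiff 2.2.1, the methods name Cufflinks for the FPKM, and the gene annotation, the strand setting and the treatment of reads mapping to several places are not given in the sources used here. FPKM are not counts, so no count model was used.

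FPKM were taken to the log2 scale after addition of a pseudocount of 1. Genes with an FPKM of 1 or more in 2 or more libraries (11018 of 24346) were fitted with limma 3.58.1 under R 4.3.3, with a prior variance that follows the mean level, and p-values were adjusted over all these genes (Benjamini-Hochberg). A gene was called where its adjusted p-value was below 0.05 and its log2 difference was 1 or more in size. The fit was tested on simulated data, in which it recovered the size of the differences with few false calls. It missed most of the larger changes made and nearly all of the smaller ones, so that a gene not called may still have changed. The simulated noise was independent between libraries and had the same SD in both groups. In the data, 1871 genes differed by 2-fold or more between the 48p-HFSC libraries and 151 between the 10p-HFSC libraries. The low rate of false calls therefore holds for the simulated setting and cannot be carried over to these data. The members and the gene lists were chosen with earlier results of these data known. Named are all members, the genes called in the pathway lists with values for the 3 largest changes in each direction of a list, the listed cell type markers, and the 3 genes whose profile was nearest to that of the member with the largest rise or fall. Other genes, named because they did not pass or were not called, were picked with their values in view.

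FPKM carry no read totals, and the depth of a library is known only relative to the others. Alternatives were a pseudocount of 0.1, no filter, TPM, median-of-ratios and quantile scaling, a constant variance prior, dropping the fold limit, a block for the replicate number, and leaving out each library. The median-of-ratios factors lay between 1.0003 and 1.0111, so that this scaling changed little. A correction for transcript length and GC content (natural splines with 4 degrees of freedom each, possible for 96.3% of the genes tested) and ratios to Rela were added after the data had been seen. Gene positions came from GENCODE M21 (GRCm38, the assembly of mm10) and promoter sequences from RefSeq (GRCm38.p6). Summaries used Python 3.11.15 with pandas 2.3.3 and numpy 2.4.6.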

Additional observations from a re-analysis of the deposited data

How the results depend on the processing

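Of 117 differences of single members under the alternatives, 96 kept their direction and their side of the threshold, 11 lost a call, 4 gained one and 6 changed sign. With no filter, a constant variance prior, no fold limit or a replicate block, the differences were those of the main fit. Their direction could not change there, so the 96 are not all a test of stability. Leaving out each library in turn gave 0 to 4 members called higher and 0 to 1 called lower, and 0 to 12 other pathway genes called higher and 1 to 8 lower. Without replicate 1 or replicate 2 of 10p-HFSCs, the lone 10p-HFSC library is assumed to vary like the 48p-HFSC pair, and over all genes 35 and 36 were called higher and 140 and 146 lower, against 1189 and 1008 with all libraries. Without replicate 1 of 48p-HFSCs, 1936 genes were called higher and 1875 lower. With no filter on low values, 1 member (Nfkbiz) was called higher, 0 other pathway genes were called higher and 0 lower, and over all genes 116 were called higher and 114 lower. Rescaling to TPM left 623 genes called higher and 812 lower. With the length and GC correction, 1 member (Nfkbia) was called lower, Nfkb2 was called higher (1.03, adjusted p-value 0.0458) and Nfkbie was not called. The signs that changed were those of Nfkb1 without replicate 2 of 48p-HFSCs (0.10), Rela after TPM rescaling (-0.41) and Tnfaip3 after quantile normalization (0.046), without replicate 1 of 10p-HFSCs (0.02), without replicate 1 of 48p-HFSCs (0.041) and with the length and GC correction (0.29), all of them genes that were not called. Over the libraries left out in turn, Nfkb1 ranged from -0.93 to 0.10 and Tnfaip3 from -0.093 to 0.041. Beyond what fewer libraries bring, the cause of these changes was not tested.

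Replicate numbers are shared between the groups, but nothing in the labels says that equal numbers mark a shared culture or day, and there are only 2 pairs. The correlation of the deviations of equally numbered libraries was 0.408 over all genes tested. In a fit blocked on the replicate number, calls over all genes came to 1613 higher and 1497 lower, the calls of members stayed at 3 higher and 0 lower, and 11 other pathway genes were called higher and 8 lower. Nfkb2 and Nfkbia then had adjusted p-values of 0.0221 and 0.0251, with differences short of the fold limit. Low values are least precise in replicate 2 of 48p-HFSCs, the library with the lowest estimated depth.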
